A study of Mus musculus with 4 samples.

Results

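Mouse subcutaneous fat holds stromal progenitors in several states, and 10 genes used to tell these states apart were followed here. The genes were taken from a list of adipose progenitor markers, and are 10 of the 31053 genes in each count table. On the progenitor side were 7 of them, Pi16, Dpp4, Cd55, Sema3c, Anxa3, Igfbp6 and Mfap5. On the other side were 3, F3, Clec11a and Fmo2. The data were 4 single-cell RNA libraries, 1 for each combination of tissue (SAT, the stromal/vascular cells of subcutaneous adipose tissue, or a subcutaneous MycCaP tumor graft) and treatment (control, titled PBS, or D-CAN). MycCaP is a mouse prostate cancer cell line, and D-CAN joins a peptide with affinity for adipose stromal cells (ASC) to an amphipathic sequence that kills the cells it enters. All mice were of the FVB strain (written VFB in the labels) and carried a graft, and the study fed them chow. Their age and sex, and whether a library pools mice, are not given in the sources used here. All groups were cleared of dead and red blood cells in the same way.

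In subcutaneous fat, PDGFRα-positive stromal cells are thought to form a hierarchy. Cells with Dpp4 and Pi16 lie in the fibrous septa and fascia around the fat lobules and are regarded as the least committed progenitors. Cells with Icam1 lie closer to adipocytes and are regarded as committed preadipocytes. Cells with F3, which encodes the surface protein CD142 (tissue factor), have been described as a regulatory population that restrains adipocyte formation, although other work has found them to be adipogenic.

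Of the members, Pi16 encodes a secreted peptidase inhibitor, and Dpp4 a membrane dipeptidyl peptidase that cuts chemokines and incretins. Cd55 encodes a membrane protein that speeds the decay of complement convertases. Sema3c encodes a secreted semaphorin, Anxa3 a calcium-dependent phospholipid-binding protein, Igfbp6 a binding protein for insulin-like growth factors, and Mfap5 a glycoprotein of microfibrils. On the other side, F3 encodes the receptor that starts coagulation, Clec11a a secreted lectin also called osteolectin, and Fmo2 a flavin monooxygenase.

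Cells with at least 200 genes were kept, which left 2841 SAT control, 1897 SAT D-CAN, 2761 tumor control and 1487 tumor D-CAN cells. The libraries held 6667064, 7444729, 17996284 and 15672787 unique molecular identifiers (UMIs, 1 per captured RNA molecule), in the same order. The fibroblasts were gated as cells with at least 2 UMIs of Dcn, the gene of the matrix proteoglycan decorin, and with none of Ptprc (leukocytes), Pecam1 (endothelium), Rgs5 (pericytes) or Epcam (epithelium). The gate held 199, 69, 71 and 57 cells, called Dcn+ here. The SAT control cells were shallow, with a median of 979 UMIs, against 5682 in SAT D-CAN, 4651 in tumor control and 7747 in tumor D-CAN. Shares of cells with a transcript are therefore given at an equal depth of 500 UMIs a cell, reached by 1 random draw without replacement, with the unthinned share beside those that carry a result. Where that draw lay apart from the exact expectation over all draws, the latter is given too. The interval beside such an expectation is that of its counts rounded to whole cells. With 1 library per group, nothing was tested between groups, since the cells of a library do not replicate it. Shares have exact Clopper-Pearson 95% intervals and UMI sums exact Poisson 95% intervals, which cover counting error only. Levels are in CPM, the UMIs of a gene summed over the cells of a set and scaled to the total UMIs of that set. The assay counts the 3′ ends of transcripts, so CPM was not divided by gene length and levels are not ranked between genes. At most 2 cell barcodes were shared by any pair of libraries.

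The labelled cell types were present. Pdgfra, the receptor gene that marks ASC, stood at 387 and 503 CPM in SAT control and D-CAN Dcn+ cells, and at 200 and 176 CPM in those of the tumors. Clustering without the members placed 98 of the 199 SAT control Dcn+ cells, and 9 of the 69 from D-CAN, in SAT cluster 9. This cluster had a median of 745 UMIs and stayed unnamed. Its leading genes included Pmp22 and Mbp, which Schwann cells express, beside Sema3c, Fn1, Mfap5 and Pi16. No Dcn+ cell of any library had 5 or more UMIs of the Schwann markers. The main results on SAT cells are given with and without these cells.

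The windows before the start of transcription are shown for 2 genes of each side, because the results below set the sides against each other. Clec11a was too sparse for co-detection, with under 5 cells expected in every pair. Each line is the 250 bases before the RefSeq start on the gene's strand (GRCm38.p6), 5′ to 3′, and all 4 windows lie outside the gene's annotated span. Capitals mark matches, on either strand, to the letters of 5 promoter elements. The core promoter element known as the TATA box was searched as TATAAA. The CCAAT box was searched under its own letters. The GC box, bound by Sp factors, was searched as GGGCGG. The AP-1 site, bound by Fos and Jun proteins, was searched as TGACTCA. The E-box, bound by helix-loop-helix factors, was searched as CACGTG. None of these letter patterns overlaps another in the windows shown. Dpp4 is on the minus strand at chr2:62412232-62412481, Cd55 on the minus strand at chr1:130462745-130462994, F3 on the plus strand at chr3:121723287-121723536 and Clec11a on the minus strand at chr7:44306960-44307209.
Dpp4: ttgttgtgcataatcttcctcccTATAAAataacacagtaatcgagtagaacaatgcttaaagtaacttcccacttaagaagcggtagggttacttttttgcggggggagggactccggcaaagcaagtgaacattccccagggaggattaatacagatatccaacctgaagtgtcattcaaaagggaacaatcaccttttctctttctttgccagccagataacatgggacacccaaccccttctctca
Cd55: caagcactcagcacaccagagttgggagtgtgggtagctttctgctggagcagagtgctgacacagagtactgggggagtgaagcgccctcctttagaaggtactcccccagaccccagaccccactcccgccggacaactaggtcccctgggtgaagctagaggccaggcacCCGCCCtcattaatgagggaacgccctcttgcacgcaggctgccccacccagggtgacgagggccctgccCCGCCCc
F3: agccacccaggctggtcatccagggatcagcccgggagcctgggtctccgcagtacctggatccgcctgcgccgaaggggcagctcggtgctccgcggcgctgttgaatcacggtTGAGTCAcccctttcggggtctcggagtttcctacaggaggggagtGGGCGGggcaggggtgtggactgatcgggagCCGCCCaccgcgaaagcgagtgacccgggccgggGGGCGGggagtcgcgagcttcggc
Clec11a: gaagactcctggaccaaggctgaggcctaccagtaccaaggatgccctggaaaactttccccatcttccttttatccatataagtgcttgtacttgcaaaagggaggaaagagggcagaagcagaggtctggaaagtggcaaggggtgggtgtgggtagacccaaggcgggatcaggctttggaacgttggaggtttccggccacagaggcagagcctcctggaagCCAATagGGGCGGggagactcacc
The Dpp4 window was the poorest of these in G and C (43.6%) and held only a TATAAA match, 227 bases before the start. Cd55 (64% G and C) held GC boxes 77 and 7 bases before the start. F3 (70%) held 3 GC boxes, at 89, 58 and 24 bases, and the only AP-1 match among the 8 members with a window, at 135 bases. Clec11a (55.6%) held a CCAAT box and a GC box, 24 and 17 bases before the start. Among all 32851 windows of this length, 12.4% held TATAAA, 33.8% CCAAT, 32.7% GGGCGG, 4.46% TGACTCA and 6.02% CACGTG, and the median G and C content was 52.4%. A match describes letters, not binding. RefSeq windows were also read for Pi16 (52.4% G and C), Sema3c (78.4%), Igfbp6 (49.6%) and Fmo2 (2 windows, 39.6% and 47.6%). Sema3c, of the progenitor side, held 3 GC boxes, and Fmo2, of the other side, held no match. The windows shown therefore do not stand for their sides. Anxa3 and Mfap5 had none.

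The founding markers of the progenitor state, Pi16 and Dpp4, had higher levels in SAT than in tumor fibroblasts, while the shares of cells with them depended on the cells of cluster 9. Pi16 (ENSMUSG00000024011, chromosome 17 of GRCm38 from 29317680 to 29330593) had a UMI in 42.7% of SAT control Dcn+ cells at equal depth (85 of 199, interval 35.7 to 49.9). The share was 33.3% in SAT D-CAN (23 of 69, 22.4 to 45.7), 12.7% in tumor control (9 of 71, 5.96 to 22.7) and 15.8% in tumor D-CAN (9 of 57, 7.48 to 27.9). Without thinning these were 51.8%, 44.9%, 38% and 42.1%. Of the 85 SAT control cells, 60 lay in cluster 9. Without this cluster the thinned share was 24.8% in SAT control (25 of 101, 16.7 to 34.3) and 35% in SAT D-CAN (21 of 60, 23.1 to 48.4). The tumor less SAT difference in control was then -12.1 points, with an interval that reached 0 (-23.8 to 0.782), and in D-CAN -19.2 points (-35 to -2.28). In cells of fibroblast-like clusters, taken without the Dcn gate and in a separate draw, the shares of control were 18.6% in SAT (12.1 to 26.9) and 12% in tumor (6.7 to 19.3). Those of D-CAN were 31.2% in SAT (20.2 to 44.1) and 5.19% in tumor (1.43 to 12.8). In leukocyte-like cells, which should lack Pi16, the thinned share was 0.715% in SAT control (13 of 1818, median 2014 UMIs) and 0 of 641 in tumor control (median 1455 UMIs), which allows up to 0.468%. The level of Pi16 was 2120 CPM (1970 to 2270) in SAT control and 2020 CPM (1880 to 2170) in SAT D-CAN, intervals that overlap. It was 312 CPM (256 to 376) in tumor control and 242 CPM (202 to 288) in tumor D-CAN. Outside cluster 9 the SAT levels were 1900 CPM (1740 to 2060) and 2130 CPM (1980 to 2290), so that the order of the tissues held in level.

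Dpp4 (ENSMUSG00000035000, chromosome 2 from 62330073 to 62412231) was sparser. It had a UMI in 15 of 199 SAT control, 6 of 69 SAT D-CAN, 1 of 71 tumor control and 1 of 57 tumor D-CAN Dcn+ cells at 500 UMIs. Its level was 218 CPM (174 to 271) and 273 CPM (223 to 330) in SAT, against 11.4 CPM (3.12 to 29.3) and 19.4 CPM (9.29 to 35.6) in the tumors. The intervals of level of the SAT libraries lay above those of the tumor libraries, and within each tissue those of the 2 treatments overlapped. With cluster 9 left out, the SAT levels were 205 and 282 CPM, and 6 of 101 control and 6 of 60 D-CAN cells had Dpp4 at 500 UMIs.

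Cd55 and Sema3c followed the same order of tissues. Cd55 (ENSMUSG00000026399, chromosome 1 from 130439027 to 130462744) stood at 282 and 273 CPM in SAT control and D-CAN and at 48.6 and 44.5 CPM in the tumors. Sema3c (ENSMUSG00000028780, chromosome 5 from 17574281 to 17730268) stood at 613 CPM (537 to 697) in SAT control, 388 CPM (328 to 456) in SAT D-CAN, 82.9 CPM in tumor control and 54.2 CPM in tumor D-CAN. The thinned share of Sema3c was 30.2% (23.9 to 37) in SAT control and 15.9% (8.24 to 26.7) in SAT D-CAN, a difference of -14.2 points (-24.5 to -1.72). The intervals of its level were separate, while those of its share overlapped. Both differences rested on cluster 9. Without it the shares were 13.9% and 15% (1.14 points, -10.3 to 14.2), and the log2 ratio of D-CAN over control moved from -0.66 to -0.17 (-0.52 to 0.18). The tumor control share of Sema3c, 11.3%, then differed from that of SAT control by -2.59 points (-13 to 8.88).

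Anxa3, Igfbp6 and Mfap5 were found in more cells. Anxa3 (ENSMUSG00000029484, chromosome 5 from 96793339 to 96845966) had a thinned share of 32.7% in SAT control, 23.2% in SAT D-CAN, 14.1% in tumor control and 12.3% in tumor D-CAN. Without cluster 9 its SAT shares were 15.8% and 21.7%, and the difference of tumor less SAT was -1.76 points (-12.9 to 10.4) in control and -9.39 points (-23.8 to 5.51) in D-CAN. The tumor shares of Anxa3 were near those of cancer-like cells of the same libraries (11.1% and 11.4%), so that they cannot be read as a fibroblast state. Igfbp6 (ENSMUSG00000023046, chromosome 15 from 102144362 to 102149511) was found in 51.8% and 55.1% of SAT Dcn+ cells and in 14.1% and 15.8% of tumor Dcn+ cells. Mfap5 (ENSMUSG00000030116, chromosome 6 from 122505845 to 122529290) had the opposite order, with 47.7% and 37.7% in SAT and 62% and 68.4% in the tumors. Without cluster 9 the SAT shares were 44.6% and 55% for Igfbp6 and 33.7% and 36.7% for Mfap5.

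The 3 genes of the F3 side were found in few cells of every library. F3 (ENSMUSG00000028128, chromosome 3 from 121723537 to 121735048) had a UMI at equal depth in 11 of 199 SAT control cells (5.53%, 2.79 to 9.68), 8 of 69 from SAT D-CAN (11.6%, 5.14 to 21.6), 4 of 71 from tumor control (5.63%, 1.56 to 13.8) and 3 of 57 from tumor D-CAN (5.26%, 1.1 to 14.6). All 4 intervals overlap. In SAT leukocyte-like cells F3 had a UMI in 0 of 1818 control and 0 of 1594 D-CAN cells, which allows up to 0.165% and 0.188%. Cancer-like tumor cells had F3 in 4.55% (control) and 4.14% (D-CAN), close to the tumor fibroblast shares. Clec11a (ENSMUSG00000004473, chromosome 7 from 44302687 to 44306902) stood at 31.6 CPM in SAT control, 102 CPM in SAT D-CAN, 114 CPM in tumor control and 126 CPM in tumor D-CAN. Fmo2 (ENSMUSG00000040170, chromosome 1 from 162874317 to 162898726) stood at 137 and 280 CPM in SAT control and D-CAN. It had no UMI in the 71 tumor control Dcn+ cells, which allows a share of up to 4.23%, and 5 UMIs in 3 of 57 cells from tumor D-CAN.

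**Figure D1:**
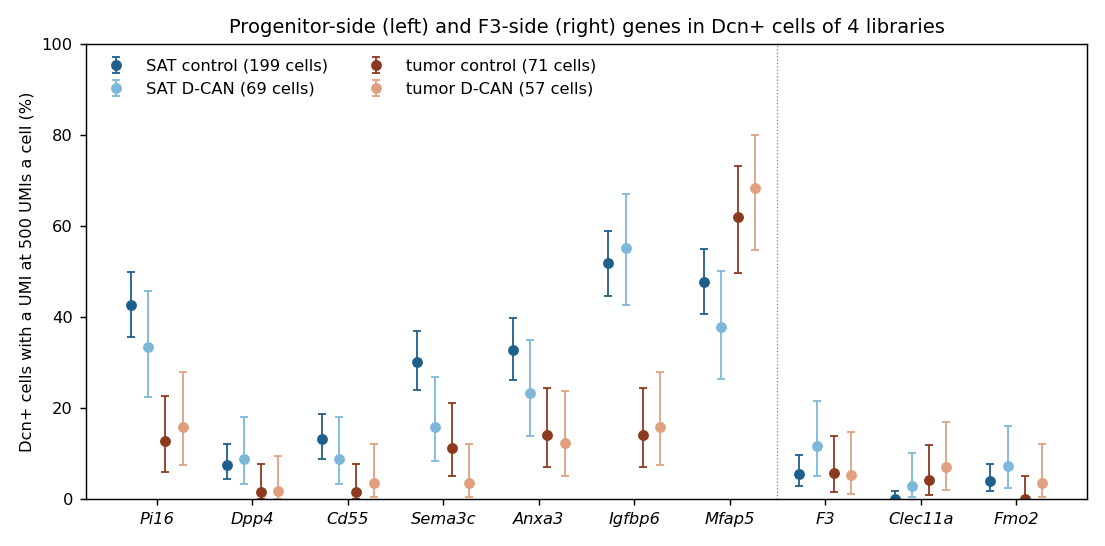
Share of Dcn+ cells with at least 1 UMI of each gene after thinning to 500 UMIs a cell (y axis, percent), for 4 libraries (colours), with exact 95% intervals for counting error as bars. Both tumor libraries lie below both SAT libraries for 6 of the 7 progenitor-side genes, Mfap5 lies higher in the tumors, and the F3-side intervals overlap, except those of Clec11a in SAT control and tumor D-CAN. The SAT control shares include 98 cells of cluster 9 and fall without them for the 7 progenitor-side genes, to 24.8% for Pi16.

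Co-detection asked whether the 2 sides occur in the same cells. For each pair of members, the SAT Dcn+ cells with a UMI of both at 500 UMIs were counted and divided by the number expected from the 2 shares within each library. Of the 45 pairs, 27 had at least 5 cells expected. Within the progenitor side, 20 of 20 such pairs were found together more often than expected, with a median ratio of 1.45 and a range of 1.1 to 1.81. Between the sides, 7 of 7 pairs were found together less often than expected, with a median of 0.363 and a range of 0 to 0.792. Without cluster 9, 12 pairs of the progenitor side had at least 5 cells expected, all 12 above 1 (median 1.6, 1.22 to 2.35), and 4 pairs between the sides, all 4 below 1 (median 0.564, 0.199 to 0.832). The intervals of all 4 pairs between the sides included 1, as for Pi16 with F3 (0.199, 0.00504 to 1.11). So did those of several of the 12, as for Cd55 with Igfbp6 (1.22, 0.585 to 2.24). Members of both sides did occur together, in 8 of 199 cells from control and 7 of 69 from D-CAN. Genes of the progenitor side alone were found in 154 and 38 cells, of the F3 side alone in 9 and 4, and of neither side in 28 and 20. No expected number is set beside these counts, so they are not read as showing the sides apart. The pairs share genes and cells, so their counts are a description and not independent.

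Pi16 and Anxa3 gave the highest ratio on the progenitor side, with 60 cells against 33.1 expected (1.81, 1.38 to 2.33). Anxa3 was found in 55.6% of Pi16+ cells and in 13.1% of the others, a difference of 42.4 points (30.8 to 53.1). Sema3c was found in 42.6% of Pi16+ cells against 15.6% of the others (27 points, 15.4 to 38.2), Igfbp6 in 75% against 37.5% (37.5 points, 25.3 to 48.4), and Mfap5 in 65.7% against 31.2% (34.5 points, 22 to 45.8). These 4 differences were above 0 in each SAT library taken alone. The Anxa3 difference, for example, was 39.5 points (25.8 to 51.9) in control and 50 points (25.2 to 70.9) in D-CAN cells. Outside cluster 9 the 4 differences over both libraries were 35.7 points for Anxa3 (19.7 to 51.6), 22.6 for Sema3c (8.34 to 38.5), 41.7 for Igfbp6 (24.3 to 55.7) and 30.4 for Mfap5 (12.6 to 46.9).

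The named pair of the progenitor state, Pi16 with Dpp4, was limited by depth. At 500 UMIs, 12% of Pi16+ cells (13 of 108) and 5% of the others (8 of 160) had Dpp4, a difference of 7.04 points whose interval reached 0 (-0.119 to 15.2). With all UMIs, 41% of Pi16+ cells (55 of 134) and 5.22% of the others (7 of 134) had it, a difference of 35.8 points (25.9 to 45.2), where deeper cells have more chances of both. The expectation over all draws at 500 UMIs was 12.4 points (4.76 to 20.7), so that the single draw lay low. When only cells with 1000 UMIs or more were used and thinned to that depth, the difference was 39.5 points (26.2 to 52.3). Without cluster 9 it was 10.9 points at 500 UMIs (0.426 to 24.8).

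Across the sides, F3 was found with Pi16 or Dpp4 in 1 SAT cell against 7.93 expected (ratio 0.126, 0.00319 to 0.703). Among cells with Pi16 or Dpp4, 0.862% had F3, against 11.8% of the others, a difference of -11 points (-17.3 to -4.93). It was -8.16 points (-15.4 to -1.37) in control and -18.2 points (-32.7 to -1.21) in D-CAN cells. The expectation over all draws was a ratio of 0.18 (0.00393 to 0.866), and without the cells of cluster 9 the ratio was also 0.18 (0.00455 to 1). At 1000 UMIs it was 0.388, with an interval that included 1 (0.0799 to 1.13), and so did that in cells with 500 genes or more (0.222, 0.00563 to 1.24). With all UMIs there were 10 cells with both against 20.1 expected (0.498, 0.239 to 0.916). Anxa3 and F3 were in no cell together against 5.45 expected, and Mfap5 and F3 in 3 against 8.27. With cluster 9 left out, these were 0 against 3.16 and 2 against 5.96 (0.335, 0.0406 to 1.21). Igfbp6 was the progenitor-side gene least separate from F3, with 8 cells against 10.1 (0.792, 0.342 to 1.56). F3 and Fmo2 were found together in 4 cells against 1.02 expected (3.91, 1.07 to 10), under the minimum of 5 expected. Without cluster 9 this pair had 4 cells against 1.38, with an interval that included 1 (2.9, 0.79 to 7.42).

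**Figure D2:**
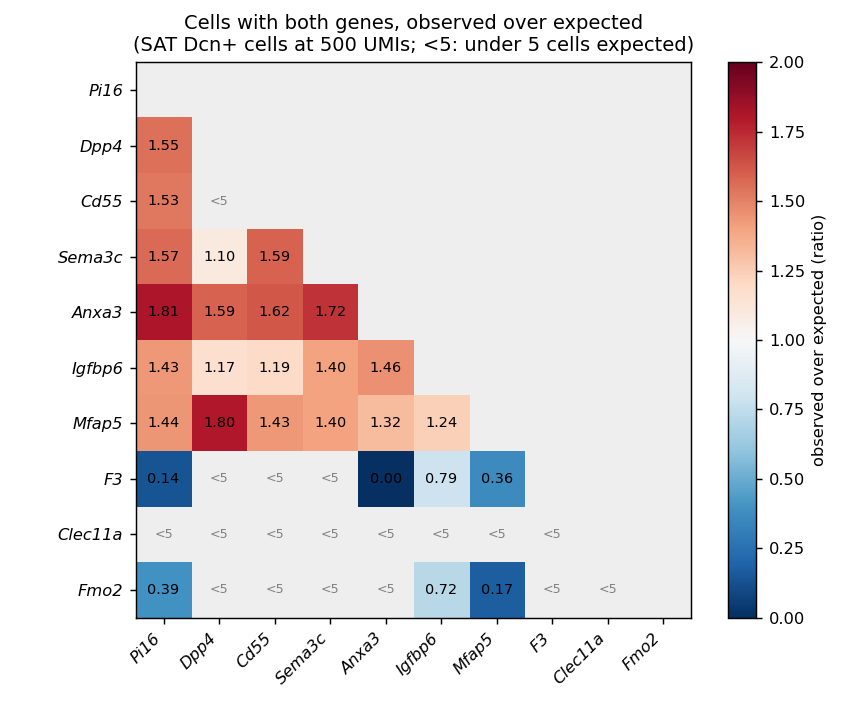
Ratio of observed to expected SAT Dcn+ cells with both genes of a pair at 500 UMIs a cell (colour and number), over 268 cells of both libraries, with expectations summed within libraries. The pairs among the 7 progenitor-side genes lie between 1.1 and 1.81, the pairs with F3 or Fmo2 between 0 and 0.792, and pairs with under 5 cells expected carry no value.

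Members were also counted per cell. At least 4 of the 7 progenitor-side genes were found in 28.1% of SAT control cells (56 of 199, 22 to 34.9) and in 23.2% of SAT D-CAN cells (16 of 69, 13.9 to 34.9). None of these 72 cells had F3, Clec11a or Fmo2, which were found in 28 of all 268 cells, and 7.33 cells with both were expected against an upper Poisson bound of 3.69 for the 0 seen. In the tumors, 3 of 71 control and 2 of 57 D-CAN cells had 4 or more of the 7 genes, and 1 of these 5 also had an F3-side gene. The tumor share was lower by 23.9 points in control (interval of the difference -31.5 to -14.1) and by 19.7 points in D-CAN (-31.8 to -7). Without cluster 9 the SAT shares were 11.9% (12 of 101, 6.29 to 19.8) and 23.3% (14 of 60, 13.4 to 36), still with no F3-side gene in these cells. The tumor difference was then -7.66 points in control, with an interval that included 0 (-16.3 to 1.8), and -19.8 points in D-CAN (-32.9 to -6.67).

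For the levels in each state, SAT Dcn+ cells were divided, on all their UMIs, into those with Pi16 or Dpp4 and no F3 (Pi16/Dpp4+, 103 control and 28 D-CAN cells), those with F3 and neither (F3+, 17 and 12 cells), those with both (5 and 5) and those with neither (74 and 24). Pi16, Dpp4 and F3 define the states, so their own levels are no result. The cells with both are not in the contrast below, although they held 33 of the 61 control and 119 of the 171 D-CAN F3 UMIs. The other members followed their side. Anxa3 stood at 1530 CPM in control and 1510 CPM in D-CAN Pi16/Dpp4+ cells, and at 43.5 and 12.3 CPM in F3+ cells (2 UMIs and 1 UMI). Over both libraries its log2 ratio was 5.79 (4.46 to 8.30). Cd55 was at 375 and 536 CPM against 65.2 and 12.3 CPM (log2 ratio 3.68, 2.46 to 5.74), and Sema3c at 899 and 780 CPM against 152 and 12.3 CPM (3.66, 2.75 to 4.97). Mfap5 was at 2600 and 3110 CPM against 413 and 270 CPM (3.13, 2.69 to 3.63). Igfbp6 differed least, at 2720 and 3410 CPM against 999 and 958 CPM (1.64, 1.38 to 1.92). For each of these 5 genes both libraries had the higher level in the Pi16/Dpp4+ cells. Cells with neither were also below the Pi16/Dpp4+ cells at these genes, for example with Anxa3 at 201 CPM in control and 0 CPM in D-CAN. Of the 103 control Pi16/Dpp4+ cells, 73 lay in cluster 9. Without this cluster, with 30 and 23 Pi16/Dpp4+ cells and 15 and 12 F3+ cells, the ratios were 6.21 for Anxa3 (4.67 to 9.58), 3.75 for Cd55, 3.53 for Sema3c, 3.22 for Mfap5 and 1.88 for Igfbp6 (1.60 to 2.19).

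Fmo2 went the other way, with 28.9 and 0 CPM in Pi16/Dpp4+ cells and 109 and 540 CPM in F3+ cells, a log2 ratio of -4.55 (-6.17 to -3.43) over both libraries and of -4.48 (-6.29 to -3.29) without cluster 9. Clec11a, under the minimum of 20 UMIs over both sides, had 2 UMIs in Pi16/Dpp4+ and 6 UMIs in F3+ cells (-3.00, -6.55 to -0.72), and none of these 6 in control. Of the 3493 genes that reached 20 UMIs over both sides, 12.1% were at least 2-fold higher and 8.1% at least 2-fold lower in Pi16/Dpp4+ cells. The 5 progenitor-side genes not used to form the states all lay past 2-fold higher, at the 94 to 99.8 percentiles of these genes, and Fmo2 past 2-fold lower. The Pi16/Dpp4+ cells of control had a median of 972 UMIs against 2090 in F3+ cells, while those of D-CAN had 7310 against 7106. Outside cluster 9 the control medians were 4082 and 2265 UMIs.

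The 10 cells with both markers differed between the libraries. In SAT D-CAN all 5 lay in cluster 13, with 162 CPM of Pi16 (7 UMIs) against 4140 CPM in Pi16/Dpp4+ cells. They had no UMI of Anxa3, Cd55 or Dpp4, 371 CPM of Mfap5 (212 to 602) against 270 CPM in F3+ cells, and 1410 CPM of Fmo2. Their median depth was 10842 UMIs. They held 119 of the 171 F3 UMIs of SAT D-CAN Dcn+ cells, 74 of them in a single cell. F3 stood at 2760 CPM (2280 to 3300) in them, against 639 CPM (477 to 838) in F3+ cells. They also held 31 of the 39 Clec11a UMIs, at 718 CPM against 73.7 CPM. In SAT control 4 of the 5 lay in cluster 13 and 1 in cluster 15, with 1700 CPM of Pi16. These 5 control cells held 33 of the 61 F3 UMIs, 27 of them in a single cell, at 1250 CPM (859 to 1750) against 608 CPM (404 to 879) in F3+ cells. They also held 6 of the 12 Clec11a UMIs. Their Mfap5, at 1660 CPM (1210 to 2230), lay between the 413 CPM of F3+ and the 2600 CPM of Pi16/Dpp4+ cells, with separate intervals. Most of this Pi16 and Mfap5 lay in the 1 cell of cluster 15. The control Dcn+ cells of cluster 13 held 18 UMIs of Pi16 in all, against 45 in the 5 cells. None of them had more than 4 UMIs of Mfap5, against 44 in 3 of the 5 cells. These levels therefore average 1 cell of cluster 15 with 4 of cluster 13. Cd55 was also between the F3+ and Pi16/Dpp4+ cells, at 227 CPM (83.3 to 494) against 65.2 and 375 CPM, from 6 UMIs. Anxa3 (151 CPM, 4 UMIs, all in 1 cell) and Sema3c (227 CPM, 6 UMIs) lay nearer to the F3+ cells. Fmo2, at 1440 CPM (1020 to 1970), was above the 109 CPM of F3+ cells (35.3 to 254). This level came from 38 UMIs in 3 cells, and a single cell held 32 of them. The interval does not cover such a spread between cells. Whether any of them are doublets was not tested.

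**Figure D3:**
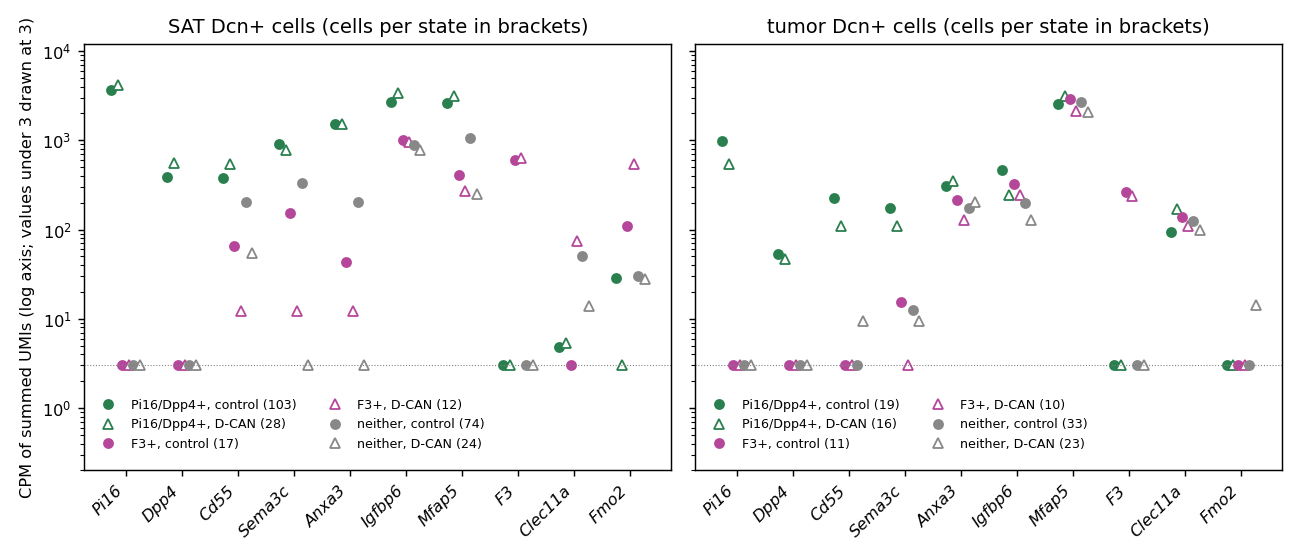
Level of each gene (CPM of summed UMIs, log axis, values under 3 drawn at 3) in Dcn+ cells with Pi16 or Dpp4 and no F3 (green), with F3 and neither (purple) and with none of the 3 (grey), for control (filled circles) and D-CAN (open triangles), in SAT (left) and tumor (right), leaving out cells with both markers. In SAT, Anxa3, Cd55, Sema3c and Mfap5 are high in the green set and low in the purple set, while in the tumors Mfap5, Igfbp6 and Clec11a lie at like levels in both sets.

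Beyond the members, genes of the same pattern were named by rule, as the top 8 and the bottom 8 ratios among those with 100 UMIs or more. Higher in Pi16/Dpp4+ cells were the genes of the secreted skin proteins dermokine (Dmkn, 209 UMIs against 0, at least 22.6-fold against 3 UMIs), keratinocyte differentiation-associated protein (Krtdap, 110 against 0, at least 11.9-fold) and suprabasin (Sbsn, 378 against 2, log2 ratio 5.62, 4.08 to 8.99). Edn1, which encodes endothelin, had 198 UMIs against 0 (at least 21.4-fold). Efhd1 (136 against 0, at least 14.7-fold), Smpd3 (5.25), Pla1a (4.85) and Tmem100 (4.64) completed this group. Lower were Cxcl14 (-5.58), Apoe (-5.41), Mgp (-5.20), Igfbp7 (-3.80), Cxcl12 (-3.74), Inmt (-3.61), Apod (-3.46) and Gas6 (-3.24). Cxcl12, a chemokine, stood at 186 CPM in Pi16/Dpp4+ and 2500 CPM in F3+ cells (interval of the log2 ratio -4.13 to -3.37). Apoe, which encodes a lipid carrier, stood at 265 and 11300 CPM. All 16 had the same sign in both libraries, as the rule asks. Their sizes differed, as for Cxcl14 (-2.03 in control and -7.39 in D-CAN) and Inmt (-5.44 and -2.87). With cluster 9 left out, the 4 genes with no UMI in F3+ cells had 102 to 189 UMIs in Pi16/Dpp4+ cells, the other 4 higher genes had ratios of 4.74 to 5.79, and the 8 lower genes of -5.52 to -3.00.

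Lists of further genes of the hierarchy were read from the same contrast. Of 25 progenitor-side genes, 24 reached 20 UMIs, 18 of these were at least 2-fold higher in Pi16/Dpp4+ cells and 1, Cd9, was at least 2-fold lower (-1.19). The median log2 ratio was 2.20 against 0.03 over all 3493 genes, and 2.06 with genes at 0 on a side set to their bound. Members of this list were Fn1, the gene of fibronectin, with 3680 CPM against 345 CPM (3.40), Smpd3, Efhd1, Creb5 (4.51) and Dact2 (39 UMIs against 0, at least 4.22-fold). Of 18 genes of F3+ or regulatory cells, 10 reached the minimum, 8 were at least 2-fold lower in Pi16/Dpp4+ cells and 1, Igfbp5, was at least 2-fold higher (2.22), with a median of -3.10. Besides Mgp, Inmt and Apod, Gdf10 stood at 40.8 CPM against 628 CPM (-3.91).

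Genes of committed preadipocytes were lower in Pi16/Dpp4+ than in F3+ cells. Of 18, 12 reached the minimum, all 12 were lower in Pi16/Dpp4+ cells and 11 at least 2-fold, with a median of -3.13. Sparcl1 stood at 7.64 CPM against 753 CPM (-6.41), Col15a1 at 5.1 against 196 CPM (-4.97), and Lpl, the gene of lipoprotein lipase, at 464 against 3940 CPM (-3.08). Matrix genes that all fibroblasts express were also lower, 10 of 10, of which 6 at least 2-fold, with a median of -1.05. Lum (-2.94), Col1a1 (-1.25), Col1a2 (-1.20) and Pdgfra (-1.16) were among these. In control alone Col1a1 (-0.63), Col1a2 (-0.48) and Pdgfra (-0.78) were under 2-fold, against -2.42, -1.91 and -1.39 in D-CAN. Col15a1 also differed less in control (-1.44) than in D-CAN (-6.80). The lists were assembled with earlier results of these data known, so that their direction is not independent evidence. SAT cluster 13 held 13 of the 17 control and all 12 D-CAN F3+ cells, but also 30 and 20 cells with neither marker. The latter are not in this contrast. It therefore cannot show whether these genes mark F3+ cells or cluster 13 more widely. Without cluster 9 the medians were 2.11 for the progenitor list (2.08 with genes at 0 set to their bound), -2.95 for the F3 and regulatory list, -3.13 for the preadipocyte list and -1.05 for the matrix list.

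Markers of other cell types were read in the same cells. In SAT Dcn+ cells the mesothelial list summed to 7.89 and 21 CPM in control and D-CAN, the mural list to 15.8 and 36.7 CPM, the endothelial list to 21.1 and 5.24 CPM and the Schwann list to 21.1 and 23.6 CPM. Among the genes of these lists at 0 were Msln, Upk3b, Lrrn4, Upk1b and Sox10 in SAT control. In SAT D-CAN they included Upk3b, Lrrn4, Upk1b and Sox10. The mesothelial sum of control was 3 UMIs of Krt19. Rgs5 and Pecam1 were at 0 by the gate. The leukocyte list summed to 305 CPM in SAT control and 21 CPM in D-CAN, with Ptprc at 0 by the gate. The epithelial list held Cldn3 alone, at 72.1 and 179 CPM in Pi16/Dpp4+ cells and 0 CPM in F3+ cells. Epcam of this list was at 0 by the gate. Of the lymph node reticular list, Cxcl13 had 954 UMIs in SAT D-CAN Dcn+ cells and 39 in SAT control, while Ccl19 and Ccl21a together had 8 and 3. Of the 954 Cxcl13 UMIs, 212 lay in Pi16/Dpp4+ cells. The 15 SAT D-CAN cells with at least 5 UMIs of this list included 10 Pi16/Dpp4+ cells. The part of these cells in the results was not tested, apart from the values without them given below and in the closing section.

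The members were not used in the clustering, so that their spread over clusters was read next. SAT cluster 15 held 19 control and 20 D-CAN Dcn+ cells. All had Pi16, and 16 of 19 and 18 of 20 had Dpp4, with all UMIs. No D-CAN and 1 control cell had F3. Cluster 13 held 53 and 40 Dcn+ cells, with Pi16 in 9 and 6, F3 in 17 and 17 and Fmo2 in 10 and 12. Cluster 9 of SAT control was closer to cluster 15 than to cluster 13 at these genes, with Pi16 in 72 of 98 cells and at 2860 CPM, Anxa3 at 1520 CPM and Sema3c at 1140 CPM, against 4200, 1490 and 826 CPM in cluster 15. F3 had a UMI in 2 of its 98 cells, with all UMIs. Cluster 17, found in SAT control alone, had no Pi16 in its 26 Dcn+ cells, which allows up to 11.5%, but held other genes of the progenitor side. Mfap5 was found in 25 of the 26 cells, Igfbp6 in 18 (1410 CPM), Anxa3 in 15 (457 CPM), Sema3c in 13 (478 CPM), Cd55 in 6 and Dpp4 in 3. Icam1, the marker of committed cells, was sparse, at 42.1 CPM in SAT control and 55 CPM in SAT D-CAN Dcn+ cells.

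**Figure D4:**
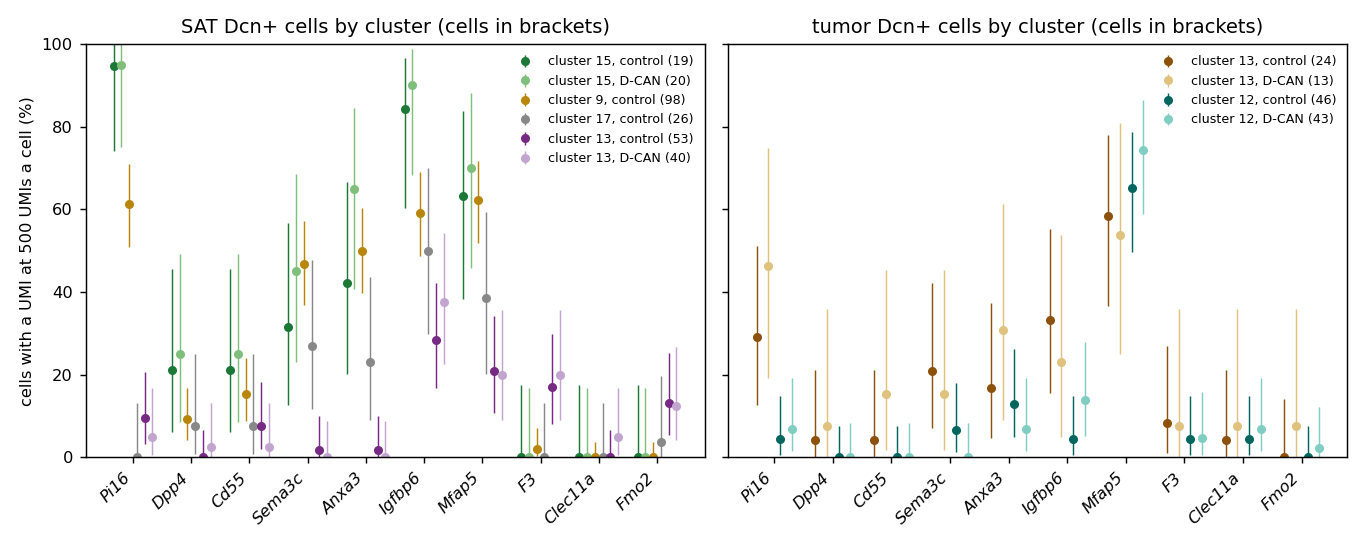
Share of Dcn+ cells with a UMI of each gene at 500 UMIs a cell (y axis, percent, exact 95% intervals for counting error), by cluster and library, in SAT (left, without the 9 D-CAN cells of cluster 9) and tumor (right). SAT clusters 15 and 9 carry Pi16 with the other progenitor-side genes, SAT cluster 17 carries several of these without Pi16, and SAT cluster 13 carries F3 and Fmo2, while in the tumors cluster 13 carries Pi16 and both clusters have Mfap5.

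Between treatments in SAT, the question was whether D-CAN, made to deplete ASC, moved one side more than the other. Dcn+ cells were 7% of SAT control cells (6.09 to 8.01) and 3.64% of SAT D-CAN cells (2.84 to 4.58), a difference of -3.37 points (-4.65 to -2.06). Without the cells of cluster 9 it was -0.392 points (-1.44 to 0.71). Cells with Pi16 or Dpp4 were 45.7% of Dcn+ cells in control (91 of 199) and 36.2% in D-CAN (25 of 69), a difference of -9.5 points whose interval included 0 (-22.8 to 4.83). Its sign turned with the cells of cluster 9. Without them it was 10.6 points (-5.08 to 26.5), and in cells of the fibroblast-like clusters, which leave out cluster 9, it was 12.1 points (-2.66 to 27.1). Among cells with 1000 UMIs or more it was -2.77 points (-18.6 to 13.6). Without thinning it was -6.45 points (-20.5 to 7.87), and by the expectation over draws -11.9 points (-25.2 to 1.84). All of these intervals include 0.

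Cells with F3 were 5.53% in control and 11.6% in D-CAN, a difference of 6.07 points (-1.6 to 16.4), and without thinning 11.1% and 24.6% (13.6 points, 2.68 to 26.1). By the expectation over draws the shares were 5.07% and 8.81%, a difference of 3.73 points (-3.09 to 13.3). Without cells with 5 or more UMIs of lymph node reticular markers, the thinned difference was 7.38 points (-1.29 to 19.6). Without cluster 9 it was 4.42 points (-5.99 to 16.6). A difference in the share of F3+ cells was therefore not detectable at equal depth.

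In summed UMIs, 4.75% of 4823 genes were at least 2-fold higher and 5.1% at least 2-fold lower in SAT D-CAN than in SAT control. All 3 genes of the F3 side and none of the progenitor side were past 2-fold higher, and none of the 10 was past 2-fold lower. F3 stood at 161 CPM in control and 448 CPM in D-CAN (log2 ratio 1.47, 1.05 to 1.93), Clec11a at 31.6 and 102 CPM (1.65, 0.73 to 2.76) and Fmo2 at 137 and 280 CPM (1.03, 0.54 to 1.54). Few cells carried these sums. The 5 D-CAN cells with both markers held 119 of the 171 F3, 31 of the 39 Clec11a and 61 of the 107 Fmo2 UMIs. The 5 such cells of control held 33 of 61, 6 of 12 and 38 of 52. In F3+ cells, F3 stood at 608 CPM in control and 639 CPM in D-CAN. A single cell held 44.3% of the F3 UMIs of control and another 43.3% of those of D-CAN, and a single control cell held 61.5% of the Fmo2 UMIs. Without the top cell of each library the ratios were 1.50 (0.94 to 2.13) for F3, 1.87 (0.71 to 3.39) for Clec11a and 1.97 (1.28 to 2.79) for Fmo2. For each gene this took a single cell out of a library, and not all the cells with both markers. Outside cluster 9 they were 1.25, 1.35 and 0.79, the last under 2-fold, and with each cell given equal weight F3 had 0.88. Without cells with lymph node reticular markers the ratios were 1.93, 2.82 and 1.53. For the progenitor side, Sema3c had -0.66 (-0.97 to -0.36), Anxa3 -0.31 (-0.54 to -0.08), Mfap5 -0.18 (-0.34 to -0.02), Pi16 -0.07 (-0.21 to 0.08), Cd55 -0.05 (-0.45 to 0.36), Igfbp6 0.16 (0.02 to 0.31) and Dpp4 0.32 (-0.11 to 0.75). With cluster 9 left out, the intervals of Sema3c, Anxa3 (0.05, -0.22 to 0.32) and Mfap5 (-0.10, -0.27 to 0.07) included 0, while Igfbp6 had 0.24 (0.09 to 0.40).

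The wider lists were read by treatment as well. The F3 and regulatory list had 3 of 16 genes at least 2-fold higher in SAT D-CAN (Apod 1.55, Inmt 1.26, Mgp 1.14) and a median of 0.36, and the preadipocyte list 4 of 14 (Col15a1 1.67, Cxcl14 1.30, Lpl 1.10, Col4a1 1.04) and a median of 0.62, against -0.01 over all genes. The progenitor list had 1 of 24 past 2-fold higher (Has1, 1.49), none past 2-fold lower and a median of -0.12. The matrix list had 1 of 10, Gsn (1.09), and a median of 0.25. Those named here were chosen after their values were seen. Without cluster 9 the medians were 0.21 for the F3 and regulatory list, 0.22 for the preadipocyte list, 0.01 for the progenitor list and 0.13 for the matrix list. With 1 library per treatment, the mice, the capture and the treatment cannot be told apart.

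In the tumors, cells with Pi16 or Dpp4 were 12.7% of Dcn+ cells in control (9 of 71, 5.96 to 22.7) and 15.8% in D-CAN (9 of 57, 7.48 to 27.9), a difference of 3.11 points (-9.91 to 16.9), and by the expectation over draws of -0.825 points (-13 to 13.7). The tumor shares were lower than those of SAT by 33.1 points in control (interval of the difference -42.9 to -20.8) and by 20.4 points in D-CAN (-35.4 to -3.94). Outside cluster 9 the differences were -15 points (-26.9 to -1.94) and -22.5 points (-38.4 to -5.33). Without thinning they were -16.2 points (-29.5 to -2) and -5.72 points (-23.6 to 12.7), and with neither thinning nor cluster 9, 3.37 points (-11.8 to 18.7) and -4.56 points (-23.2 to 14.4). For F3 the thinned difference of tumor less SAT was 0.106 points (-5.71 to 8.72) in control and -6.33 points (-17.1 to 5.04) in D-CAN.

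Of 7580 genes at 20 UMIs or more over all 4 libraries, 13.2% were at least 2-fold higher and 11.8% at least 2-fold lower in tumor than in SAT Dcn+ cells, with a median log2 ratio of 0.09. Of the 10 members, 8 were at least 2-fold lower and none was at least 2-fold higher. The ratios were -3.88 for Dpp4, -3.08 for Igfbp6, -2.93 for Pi16, -2.92 for Sema3c, -2.57 for Cd55, -1.87 for Anxa3, -5.04 for Fmo2 and -1.25 for F3. The F3 ratio came from D-CAN (-2.29, -2.80 to -1.83) and not from control (0.19, -0.34 to 0.72), and with equal weight for each cell it was -0.20. With cluster 9 left out, the 8 ratios lay between -5.27 (Fmo2) and -1.47 (F3), with -2.90 for Pi16 and -1.72 for Anxa3. Mfap5 had 0.52 and Clec11a 0.85, the latter with 1.82 (0.90 to 2.92) in control and 0.29 (-0.29 to 0.91) in D-CAN. Of the progenitor list, 19 of 24 genes were past 2-fold lower and 1, Il33, past 2-fold higher (1.07), with a median of -2.33, as for example Smpd3 (-4.41), Efhd1 (-4.14), Pcolce2 (-3.78) and Cd34 (-2.72). The F3 and regulatory list had 7 of 16 lower and 3 higher (Mfap4 3.96, Mgp 3.67, Bgn 2.56), with a median of -0.87. The preadipocyte list had 5 of 16 lower and 2 higher (Col15a1 1.81, Cxcl14 1.45), with a median of 0.14, and the matrix list 3 of 10 lower and a median of -0.17. Tissue and capture cannot be told apart here. The mural list, chiefly Acta2 (the gene of smooth muscle actin), summed to 2320 and 2140 CPM in tumor control and D-CAN Dcn+ cells, with Rgs5 at 0 by the gate.

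Of the progenitor-side genes, Pi16, Dpp4, Cd55 and Sema3c were concentrated in the smaller of the tumor fibroblast clusters, and the other 3 were found in both. Tumor cluster 13 had 24 control and 13 D-CAN Dcn+ cells, and cluster 12, led by Thbs4, Mfap5 and Cilp, had 46 and 43. With all UMIs, Pi16 was found in 16 of 24 and 9 of 13 cells of cluster 13, at 977 and 1080 CPM, and in 11 of 46 and 15 of 43 cells of cluster 12, at 81.6 and 112 CPM. Dpp4 was found in 4 of 24 and 5 of 13 cells of cluster 13 and in none of the 46 and 43 cells of cluster 12, which allows up to 6.52% and 6.98%. Cd55 stood at 178 and 252 CPM in cluster 13 and at 3.89 and 11.7 CPM in cluster 12, and Sema3c at 255 and 280 CPM against 23.3 and 16.4 CPM. Mfap5 was found in all 46 and all 43 cells of cluster 12, at 2840 and 2580 CPM, and stood at 1910 and 2520 CPM in cluster 13. Anxa3 was found in 22 of 46 and 23 of 43 cells of cluster 12, at 202 and 187 CPM, against 255 and 533 CPM in cluster 13. Igfbp6 was found in 24 cells of cluster 12 in each library, at 214 and 159 CPM, against 522 and 518 CPM in cluster 13. Acta2 had a UMI in 1 of 24 and 0 of 13 cells of cluster 13 and in 38 of 46 and 31 of 43 cells of cluster 12. Clec11a was found in 19 of 46 and 23 of 43 cells of cluster 12, against 3 of 24 and 1 of 13 cells of cluster 13. The level of Pi16 in tumor cluster 13 was below the 4200 and 4770 CPM of SAT cluster 15.

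In the tumors the depth at 500 UMIs could not show whether the sides were apart. At that depth, F3 was found with Pi16 or Dpp4 in 1 cell against 0.981 expected (ratio 1.02, 0.0258 to 5.68), and with all UMIs in 16 cells against 14.8 (1.08, 0.618 to 1.76). In the tumor states, Mfap5 stood at 2920 CPM in 35 Pi16/Dpp4+ cells and 2410 CPM in 21 F3+ cells (log2 ratio 0.27, 0.09 to 0.46), Igfbp6 at 326 and 275 CPM (0.24, -0.31 to 0.82) and Clec11a at 143 and 120 CPM (0.24, -0.61 to 1.14). Larger differences were seen for 3 genes. Cd55 had 31 UMIs in the Pi16/Dpp4+ cells and none in the F3+ cells, Sema3c 27 UMIs and 1 (3.98, 1.94 to 9.90), and Anxa3 stood at 336 and 160 CPM (1.05, 0.41 to 1.76). The mural list summed to 320 and 1430 CPM in tumor Pi16/Dpp4+ cells of control and D-CAN, and to 4780 and 3080 CPM in F3+ cells.

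Between treatments in the tumors, 2.69% of 5323 genes were at least 2-fold higher and 2.93% at least 2-fold lower in D-CAN. Of the 8 members that reached 20 UMIs, F3 alone was past 2-fold, at 183 CPM in control and 91 CPM in D-CAN (log2 ratio -1.0, -1.58 to -0.44). A single control cell held 34.4% of its UMIs, and without the top cell of each library the ratio was -0.64 (-1.30 to 0.02). Sema3c had -0.61 (-1.42 to 0.19), Igfbp6 -0.45 (-0.86 to -0.05) and Pi16 -0.37 (-0.75 to 0.02), and Cd55, Mfap5, Anxa3 and Clec11a lay between -0.14 and 0.13. Dpp4 had 4 and 10 UMIs in all. The wider lists had medians between -0.27 and 0.44. Dcn+ cells were 2.57% of tumor control cells (2.01 to 3.23) and 3.83% of tumor D-CAN cells (2.92 to 4.94). This difference of 1.26 points (0.131 to 2.5) had the opposite sign to that in SAT. The gate is set at full depth, and the Dcn+ cells of tumor D-CAN were deeper (median 7747 against 4651 UMIs). It held 70 of the 117 fibroblast-like cells of tumor control and 56 of the 77 of tumor D-CAN. Fibroblast-like cells without the gate were 117 of 2761 and 77 of 1487 cells. The part of depth in the difference was not tested.

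Outside the fibroblasts the members differed in how far they marked them. Pi16 was at most 17.3 CPM in endothelial-like, perivascular-like and leukocyte-like cells of any library, against 1820 and 2100 CPM in fibroblast-like SAT cells. Sema3c was at most 6.32 CPM and Igfbp6 at most 25.3 CPM in those classes. Mfap5 reached 209 CPM in perivascular-like cells of tumor control. Dpp4 and Cd55 also occurred in SAT leukocyte-like cells, at 27.6 and 20.6 CPM and at 108 and 94.9 CPM in control and D-CAN, as is known for both proteins on lymphocytes. Anxa3 was found in every class of the tumors, with 254 and 284 CPM in cancer-like cells and 338 and 299 CPM in endothelial-like cells. F3 stood at 85.1 and 71.7 CPM in cancer-like cells, against 155 and 86.9 CPM in fibroblast-like tumor cells. Fmo2 was found in SAT endothelial-like cells at 228 and 238 CPM, near the 169 and 278 CPM of fibroblast-like SAT cells. In the tumors it stood at 97.1 and 124 CPM in endothelial-like and at 215 and 136 CPM in perivascular-like cells. Fibroblast-like tumor cells had 0 and 8.05 CPM of Fmo2. Clec11a was at most 7.25 CPM outside the fibroblast-like and unnamed classes.

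**Figure D5:**
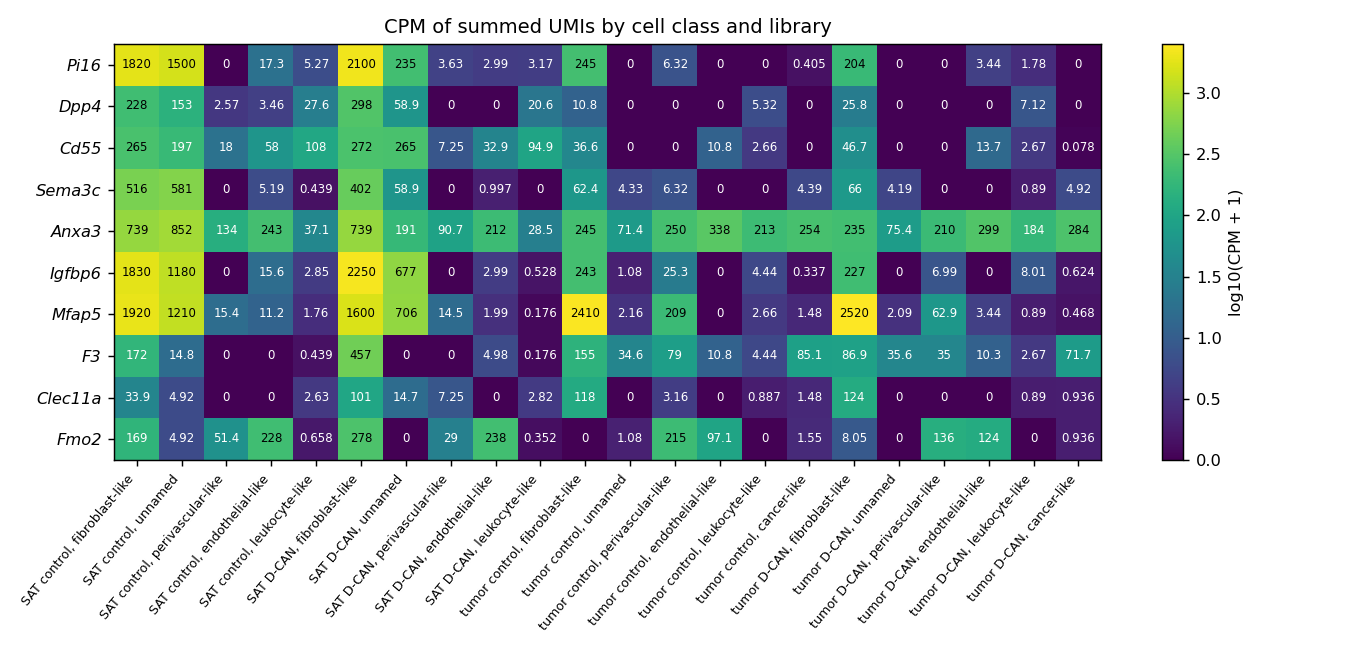
Level of each gene (CPM of summed UMIs, numbers, with log10(CPM + 1) as colour) in every cell class (columns) of the 4 libraries, where unnamed in SAT is cluster 9. Pi16, Sema3c, Igfbp6 and Mfap5 stay within fibroblast-like cells and unnamed SAT cells, apart from Mfap5 in tumor perivascular-like cells. Anxa3, F3 and Fmo2 are also found in cancer-like, endothelial-like or perivascular-like cells.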

How the data were processed

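Single-cell 3′ RNA libraries of SAT and of tumor grafts, 1 each from control and D-CAN mice, were read. Per the labels and methods, the authors aligned reads to mm10 with Cell Ranger (3.1.0) and STAR (2.6). The deposited values are raw UMI counts of called cells. The header of the SAT D-CAN table names another release of Cell Ranger, and its effect was not tested. The total UMIs of each library are given above.

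Cells with at least 200 genes were kept. Each cell was thinned without replacement to 500 UMIs in 1 draw, which a cell kept in every alternative. The shares given by cell class came from separate draws. Log2 ratios compare UMIs summed over cells and divided by their total, with 0.5 UMI added on each side, for genes with 20 UMIs or more. Cells of each tissue were clustered in Seurat 5.3.0 (R 4.3.3) with 10 components, resolution 0.8 and 2000 variable genes, without the members, Dcn and Icam1. A cluster was named from markers when at least 3 were detected. A marker counted as detected in 10% of cells and at 25% of its highest cluster level. Doublets were not called, and cells with Ptprc, Pecam1, Rgs5 or Epcam were left out of the gate. Other steps ran in Python 3.11.15 (scipy 1.17.1, numpy 2.4.6, pandas 2.3.3) and were tested on simulated data. For a count of 0, the share allowed is that of 3 counts.

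Named were the 10 members, up to 4 genes of each list, and the 8 highest and 8 lowest ratios between states at 100 UMIs or more, without mitochondrial, ribosomal protein or predicted genes. The members and lists were chosen with earlier results of these data known. Alternatives were other Dcn gates, filters, thinning depths, minimum counts and size factors. Leaving out cluster 9, lymph node marker cells or cells under 1000 UMIs, and weighting cells equally, were chosen after seeing the data.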

Additional observations from a re-analysis of the deposited data

Results flagged for a closer look

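The F3 level of Dcn+ cells lay higher in D-CAN than in control in SAT (log2 ratio 1.47) and lower in the tumors (-1.0), with intervals on opposite sides of 0. Igfbp6 had the same pattern at a smaller size, with 0.16 in SAT and -0.45 in the tumors. The difference between tissues was not tested, because each group is 1 library. Without the top cell of each library the tumor interval of F3 reached 0 (-1.30 to 0.02), and that of Igfbp6 in SAT also did (-0.04 to 0.26). In SAT D-CAN, 119 of the 171 F3 UMIs lay in the 5 cells with both markers.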

How the results depend on the processing

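Of 174 recomputed values of the main results, 158 moved by less than their interval or stayed within 1.5 times the count, and 16 did not. The cause was not tested. For the difference in the share of Dcn+ cells in SAT (-3.37 points), the values were -1.54 with 5 Dcn UMIs, -4.65 without exclusion by other cells' genes, -0.78 in fibroblast-like clusters, -1.66 with 500 genes, -5.69 with cluster 9 added to these clusters and -0.392 without cluster 9. The difference in Pi16 or Dpp4 (-9.5 points) was 12.1 in fibroblast-like clusters and 10.6 without cluster 9, both with the opposite sign. Dpp4 among Pi16+ less other cells (7.04 points) was 35.8 without thinning and 39.5 at 1000 UMIs. With 50 in place of 20 UMIs, which tests fewer genes, counts past 2-fold fell from 706 to 284 between states, from 475 to 106 between SAT treatments and from 1896 to 1019 between tissues, and the preadipocyte median was -4.26. With cells weighted equally they were 1125 between states and 848 between SAT treatments. Of 520 recomputed ratios of members, 491 moved by less than 1.5 times and 29 by more, and none past 2-fold with 20 UMIs or more turned its sign. Fmo2 in tumor D-CAN over control, at 5 UMIs against 0 and so under that minimum, had 2.90 and, without exclusion, -2.69. Leaving out Pi16, Dpp4 and F3, which define the states, the 6 members at the minimum kept the sign of their ratio between states in 78 of 78 values. No paired analysis was possible because each group is 1 library.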
